A study of Mus musculus with 27 samples.

Results

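DNA ends joined without XLF were compared with those joined in WT cells of the CH12F3 line, a mouse B-cell line that switches its antibody class from IgM to IgA when stimulated. The comparison took every line of the tables of 2 XLF-/- clones (6 libraries, 37282 joins: 21418 in clone 1 and 15864 in clone 2) and of the WT table (3 libraries, 11504 joins), out of 193201 joins in the 27 libraries and 9 clones of the series. Joins were read by LAM-HTGTS, a sequencing method that starts from a fixed piece of DNA (the bait) and reads into whatever DNA was joined to it (the prey). The bait lay at the Iμ promoter just before the Sμ switch region of the heavy-chain locus. XLF-/- and WT cells were both taken 72 h after stimulation with 20 ng/mL IL-4, 1 ng/mL TGFβ and αCD40 (1 mg/mL as labelled); no other genotype is given for either. WT was 1 clone, and nothing in the labels says that the libraries of a clone came from separate cultures, so the p-values below measure the spread between libraries, which may be technical.

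XLF (Nhej1) is a scaffold of classical non-homologous end joining, the pathway that seals most double-strand breaks with little or no shared sequence between the ends: Ku holds the ends, XLF and XRCC4 align them, and DNA ligase 4 seals them. In class switching, the enzyme AID turns cytosines into uracils in the repetitive switch regions, with a preference for motifs such as AGCT, which is its own reverse complement and so carries a target on both strands; repair of these lesions leaves breaks. When classical joining is missing, alternative joining uses short stretches of sequence shared by both ends (microhomology) after the ends have been trimmed.

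The bait is shown because the results turn on where along it the joins end. It is written from the first aligned base (bait base 1, position 114664910 of chromosome 12, mm9, minus strand) to position 114664780, in mm9 letters. Capitals mark the bases at which bait ends of Sα joins were less frequent in XLF-/- in the first line, more frequent in XLF-/- in the second, and the copies of AGCT in the third.
Bait with less frequent ends in capitals: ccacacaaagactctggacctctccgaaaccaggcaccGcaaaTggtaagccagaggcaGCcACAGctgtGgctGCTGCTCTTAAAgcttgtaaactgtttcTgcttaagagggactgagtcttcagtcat
Bait with more frequent ends in capitals: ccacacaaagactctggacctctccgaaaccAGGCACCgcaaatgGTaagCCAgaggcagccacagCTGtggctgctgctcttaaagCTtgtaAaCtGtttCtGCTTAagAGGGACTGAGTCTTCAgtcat
Bait with AGCT in capitals: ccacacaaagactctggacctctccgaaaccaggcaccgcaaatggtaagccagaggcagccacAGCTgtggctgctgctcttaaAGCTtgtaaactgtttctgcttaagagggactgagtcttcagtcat
The joins below are among the 3 of each class found in the most libraries and show what was counted, with 24 bases of bait and then prey as read. Capitals mark the prey in the direct join, the shared bases in the microhomology joins, and the inserted bases in the insertion join.
Direct join, 3 XLF-/- and 0 WT reads: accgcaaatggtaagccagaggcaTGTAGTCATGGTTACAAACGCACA
Microhomology of 1 base, 6 XLF-/- and 4 WT reads: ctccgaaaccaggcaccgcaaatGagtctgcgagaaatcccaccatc
Microhomology of 5 bases, 6 XLF-/- and 2 WT reads: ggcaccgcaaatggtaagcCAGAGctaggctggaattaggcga
Microhomology of 6 bases, 5 XLF-/- and 3 WT reads: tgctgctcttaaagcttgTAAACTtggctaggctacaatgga
Insertion of 1 base, 3 XLF-/- and 1 WT reads: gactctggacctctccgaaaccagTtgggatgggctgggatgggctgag

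XLF-/- libraries held 4370 to 10164 joins and WT libraries 3610 to 4010, of which 1703 to 4563 and 1903 to 2064 fell in the Sα window, the acceptor of the switch to IgA (chromosome 12, 114489501 to 114509500). Lines repeating a join of the same library made up 0.0998% to 0.885%. The XLF-/- libraries were sequenced on other runs than the WT libraries, so that run and genotype cannot be told apart in this comparison alone. The 6 libraries of the 2 PAXX-/- clones of the series shared both runs of the XLF-/- libraries, and their values are given beside the main results for that reason. Of reads that continued past bait base 78, 45.9% to 48.3% by library had A there in XLF-/- clone 1 (G78A), 0.0935% to 0.381% in XLF-/- clone 2, and 2.26% to 2.74% in WT.

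Sα joins without XLF had fewer direct ends and longer shared stretches, and the change reached every size of microhomology from 1 to 7 bases, in 2 directions. Direct joins made up 6.16%, 6.68% and 6.47% of Sα joins in the libraries of XLF-/- clone 1 and 5.74%, 6.20% and 6.22% in those of clone 2, against 18.5%, 18.4% and 18.1% in WT. The clones lay close together and far from WT. The difference was -12.1 percentage points (95% interval -12.7 to -11.5, exact two-sided permutation p = 0.0119 over 6 against 3 libraries, the smallest p this design can give, adjusted p = 0.0149 over the 10 planned measures). Of 19 classes of overlap and insertion length, 13 (68.4%) passed limma voom at an adjusted p under 0.05, with 7 higher (36.8%) and 6 lower (31.6%) in XLF-/-. Among the shared lengths, 1 base was lower in XLF-/-, at 11.2% ± 0.571 (SD, n = 6 libraries) against 18.9% ± 0.472 in WT (SD, n = 3), a log2 fold change of -0.74 ± 0.05 (SE). From 2 bases on the sign turned. Joins with 2 shared bases made up 24.5% ± 0.612 in XLF-/- and 15.5% ± 0.857 in WT, the most frequent class in XLF-/- but not in WT. Joins with 3 shared bases made up 20.1% ± 0.873 in XLF-/- against 9.70% ± 0.499 in WT (log2 fold change 1.04 ± 0.07, limma voom adjusted p = 1.88e-30). The classes of 6 and 7 bases were rare and had the largest rises, with 1.54% against 0.483% (log2 fold change 1.62 ± 0.29) and 0.881% against 0.215% (1.82 ± 0.37). Classes of 8 and 9 bases did not pass, with 69 and 32 XLF-/- joins against 17 and 7 WT joins.

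**Figure D1:**
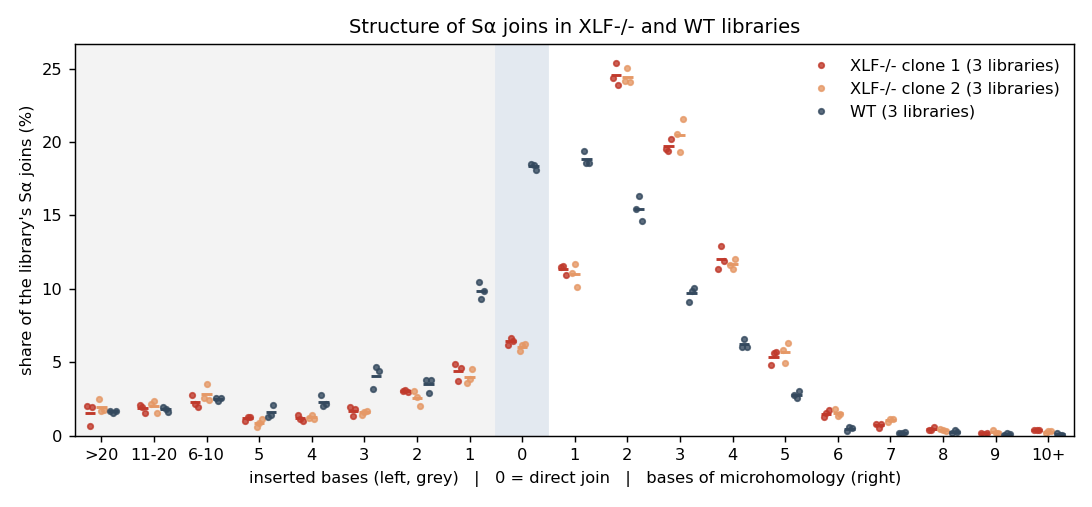
Share of each library's Sα joins (%, vertical) by inserted bases (left, grey), direct joins (0) and bases of microhomology (right); points are libraries, lines are means of 3 libraries. Direct joins sit at 5.74% to 6.68% in the 6 XLF-/- libraries and at 18.1% to 18.5% in WT, and the order turns between 1 and 2 shared bases.

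The letters of the shared stretches were compared within each length. Of all shared bases, 62.1% ± 0.554 were G or C in XLF-/- (n = 6) and 61.2% ± 0.623 in WT (n = 3), with overlapping libraries. Of 20 mononucleotides and dinucleotides tested as the whole shared stretch of joins of that length, none passed after adjustment. The groups did not overlap for A, C, CC and TA, which stood at the smallest p this design can give (exact permutation p = 0.0119, adjusted p = 0.0595 over 20 tests), so that no lower value was open to them. The groups also did not overlap for GT (exact permutation p = 0.0357, adjusted p = 0.102). The same held for TC (exact permutation p = 0.0238, adjusted p = 0.0794) and for TG (exact permutation p = 0.0476, adjusted p = 0.106). C made up 28.8% of 1-base microhomologies in XLF-/- and 21.3% in WT, and A 19.8% and 25.9%. CC made up 6.21% of those of 2 bases in XLF-/- and 2.69% in WT, and TA 2.07% and 4.19%. Among longer stretches, described after their values were seen and without a test, CCAG was shared in 0.776% of Sα joins in XLF-/- (0.477% to 0.942%) and 0.0834% in WT (0.0485% to 0.105%), while AGCTG was shared in 0.861% and 0.825%.

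Bait ends moved as well. Of 100 bait bases with 10 or more Sα joins, 64 (64.0%) passed limma voom, 42 higher (42.0%) and 22 lower (22.0%) in XLF-/-. That minimum was counted over both groups together, so that bases with few WT joins entered through XLF-/-. Their calls as higher follow in part from the filter. The longest run of neighbouring lower ends covered bait bases 75 to 86 (12 bases, 114664825 to 114664836). Ends in this stretch made up 3.55%, 3.81% and 3.56% of Sα joins in clone 1 and 3.58%, 3.44% and 3.05% in clone 2, against 21.1%, 21.3% and 21.8% in WT. The stretch was picked from these calls, so that its share is a description. The 5 largest falls all lay within it, at bases 78, 80, 79, 77 and 81 (log2 fold changes -4.14 to -3.57). Base 78 was the last bait base in 0.212% ± 0.0899 of XLF-/- joins and 3.72% ± 0.217 of WT joins. Clone 2, with less A at that base than WT, stood at 0.247%, and clone 1, with the most, at 0.177%. The low share held in each structural class, with 4.30% of direct joins in XLF-/- against 24.8% in WT, 3.40% against 18.6% of microhomology joins and 3.67% against 24.5% of insertion joins, and also among joins within 10 kb of the bait, where it was 3.24% against 19.1%. On other chromosomes the libraries overlapped, at 4.49% to 6.01% in XLF-/- and 4.73% to 8.70% in WT.

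The 5 largest rises were at bait bases 122, 111, 120, 36 and 105. Base 36 was the last bait base of 1.64% ± 0.250 of Sα joins in XLF-/- and 0.297% ± 0.0789 in WT (log2 fold change 2.38 ± 0.33, limma voom adjusted p = 1.24e-11). Base 122 ended 40 XLF-/- joins and 0 WT joins; set against a floor of 3 joins over the WT group, this is at least 5.08-fold higher in XLF-/-. The other rises lay at or beyond the AflII site CTTAAG of the bait (bases 105 to 110); per the labels, AflII was used in the library preparation to block uncut bait. Joins that end at the last base of that site or past it made up 1.36% to 4.05% of Sα joins in XLF-/- and 0.338% to 0.484% in WT. The PAXX-/- libraries of the same runs had 1.49% to 2.50%, above WT and overlapping XLF-/-, so that the far ends were not particular to XLF-/-. For the stretch of bases 75 to 86, in contrast, the PAXX-/- libraries had 19.7% to 26.7%, none near XLF-/-.

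**Figure D2:**
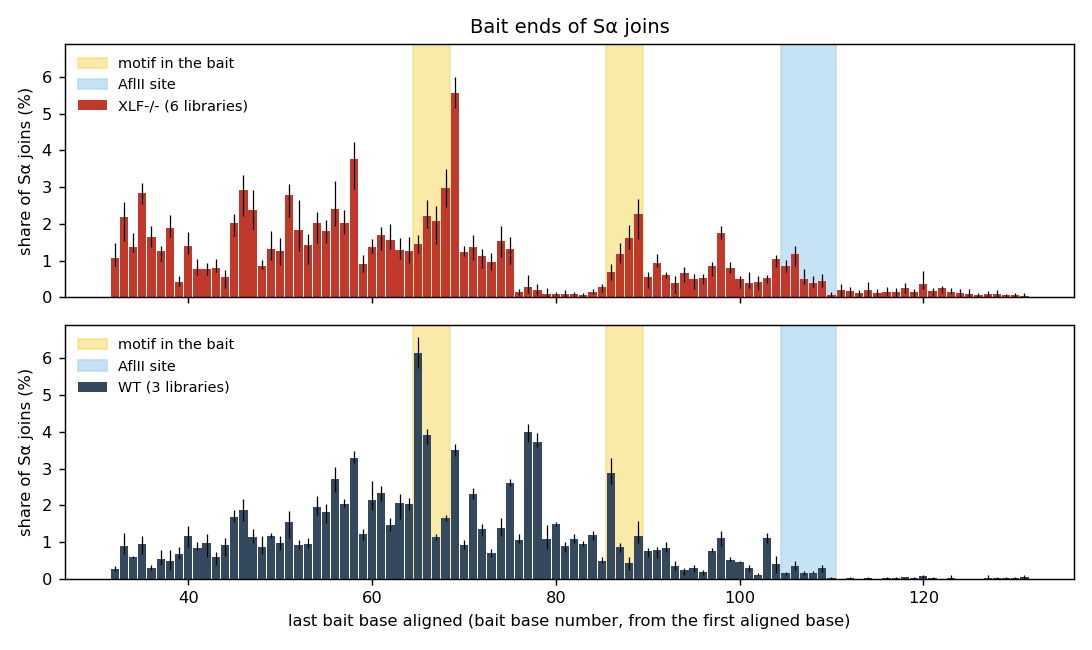
Share of Sα joins (%, vertical) by last bait base aligned (horizontal), mean of 6 XLF-/- libraries (top) and 3 WT libraries (bottom); thin lines span the lowest to the highest library, and shaded bands mark the copies of AGCT (called motif) and the AflII site. Bases 75 to 86 hold 3.50% of ends in XLF-/- and 21.4% in WT.

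On the prey side, fewer XLF-/- joins than WT joins lay near AGCT. The Sα core, the shortest interval with 90% of Sα joins when clones are weighted equally (114496668 to 114502828), holds 142 copies of AGCT in mm9 letters, and 30.01% of its 6125 positions have one within the 20 bases around them. Among deletional core joins, those oriented so that the stretch separating bait from prey is lost, the 20 bases around the prey end held AGCT in 31.1%, 31.3% and 31.8% in XLF-/- clone 1 and 31.8%, 31.6% and 30.4% in clone 2, against 50.2%, 51.9% and 52.2% in WT. The difference was -20.1 percentage points (95% interval -21.3 to -18.9, exact permutation p = 0.0119, 12163 XLF-/- and 5566 WT joins). The motif was chosen with results of these data in view. The 3 structural classes gave like differences (direct joins 28.5% against 47.8%, microhomology joins 30.9% against 50.2%, insertion joins 34.0% against 56.2%).

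Since XLF-/- and WT joins used different parts of the core, the share was also set against the positions of each part. In the densest 500 bp bin (114500001 to 114500500), where 54.3% of positions have the motif nearby, 54.5% ± 1.71 of XLF-/- joins and 67.3% ± 0.771 of WT joins did (difference -12.8 points, -15.3 to -10.2, exact permutation p = 0.0119). In the rest of the core, where 27.9% of positions do, the shares were 27.4% ± 0.600 in XLF-/- and 45.6% ± 1.42 in WT (difference -18.3 points, -19.7 to -16.8, exact permutation p = 0.0119). Over the 20 bases together, the XLF-/- share lay within 1 SD of the share of positions in both parts. The WT share lay well above it. This does not mean that no place was preferred in XLF-/-. Among microhomology joins, the first aligned prey base was the A of AGCT in 6.25% in XLF-/- (5.46% to 7.43%) and 6.96% in WT. Of core positions, 2.29% have that place. The libraries overlapped there, while at each other place compared the XLF-/- share was lower without overlap. Within the rest of the core the groups still used different bins. Over the whole core, 45.8% to 48.1% of deletional joins in the PAXX-/- libraries of the same runs had AGCT within the 20 bases. XLF-/- differed from them by -15.5 points (exact permutation p = 0.00216 over 6 against 6 libraries, adjusted p = 0.00265 over 11 measures). That p is the smallest possible when libraries are split without regard to run, as was done here. A position used in WT and little in XLF-/- is shown with its AGCT copies in capitals, 30 bases of the minus strand from 114500101 to 114500072.
Sα around position 114500086: taggctgggctgAGCTggaatgAGCTgggt
It took 0.540% of deletional core joins in WT and 0.101% in XLF-/-. Of those joins, 20 of 30 in WT and 4 of 12 in XLF-/- were read with insertions. The position lies next to 114500087, where most joins of both genotypes were read with insertions. Other much used positions with AGCT nearby differed less, with overlapping libraries. Position 114500098 took 1.20% in WT and 1.11% in XLF-/-, 114500087 took 0.845% and 0.726%, and 114500029 took 0.217% and 0.181%.

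**Figure D3:**
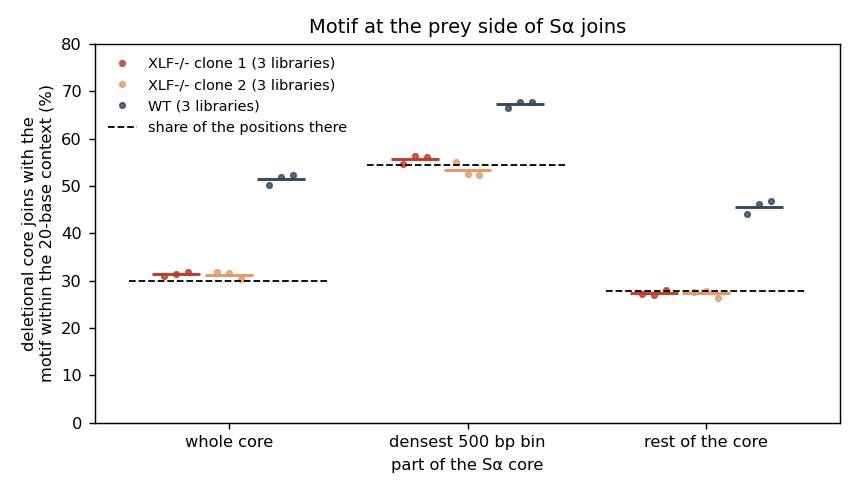
Share of deletional Sα core joins (%, vertical) with AGCT within the 20 bases around the prey end, for the whole core, its densest 500 bp bin and the rest; points are libraries, lines means of 3 libraries, and dashed lines the share of core positions with the motif. The XLF-/- libraries lie near the dashed lines (31.3% against 30.01% for the whole core) and the WT libraries above them (51.4%).

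Insertions were fewer in XLF-/-, mainly those that continue the bait or the prey with 1 base changed. Insertions made up 17.2% ± 1.36 of Sα joins in XLF-/- and 27.4% ± 1.06 in WT, a difference of -10.1 points (95% interval -12.3 to -8.10, exact permutation p = 0.0119, adjusted p = 0.0149). By length, insertions of 1, 3, 4 and 5 bases were lower in XLF-/- (log2 fold changes -1.19, -1.26, -0.91 and -0.62). Those of 2 bases did not pass, with overlapping libraries (2.82% in XLF-/-, 3.53% in WT). Neither did those of 6 to 10 bases (2.58% in XLF-/-, 2.50% in WT), 11 to 20 (1.95% and 1.81%) and over 20 (1.78% and 1.65%). Many of the short WT insertions were not foreign bases: they equalled the next bases of the bait with its first G read as A, or the bases just before the prey with the last C read as T. As background, AID's deamination is read as C to T on the strand it acted on and as G to A on the other. Where an alignment stops before such a base, the bases up to the other alignment are counted here as an insertion. Whether AID made these changes was not tested. Examples of the bait kind, with the inserted bases in capitals, are the most frequent WT forms at the 3 most frequent bases, G66A, G78A and G87A, counted from bait base 1.
Bait continued with G66A, 3 XLF-/- and 21 WT reads with this insertion: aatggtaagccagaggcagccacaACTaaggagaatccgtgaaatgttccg
Bait continued with G78A, 2 XLF-/- and 19 WT reads with this insertion: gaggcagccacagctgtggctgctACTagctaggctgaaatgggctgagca
Bait continued with G87A, 0 XLF-/- and 16 WT reads with this insertion: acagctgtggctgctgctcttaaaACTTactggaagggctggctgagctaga

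This pattern was found after the reads were seen and is given without a test. Of insertions of 3 bases or more, which match by chance rarely, 15 XLF-/- joins (0.0842% of Sα joins) and 129 WT joins (2.14%) continued the bait with G to A, and 11 XLF-/- (0.0635%) and 99 WT joins (1.65%) continued the prey with C to T. No XLF-/- library reached the lowest WT library in either count. Insertions of that length that continued the bait with another change of its first base were also fewer, at 0.278% in XLF-/- against 0.991% in WT, as were those that continued the prey with another change of its last base (0.549% and 1.13%), both without overlap. Those that continued neither made up 9.30% in XLF-/- and 8.27% in WT, with overlap. Over all lengths of 2 bases or more, either kind made up 0.423% ± 0.0904 of Sα joins in XLF-/- and 5.55% ± 0.378 in WT, and of 1 base, where a chance match is likely, 1.24% ± 0.320 and 6.65% ± 0.401. All insertions other than the G-to-A and C-to-T kinds, the other changes included, made up 17.4%, 13.97% and 15.3% of Sα joins in XLF-/- clone 1 and 15.6%, 16.9% and 14.2% in clone 2, against 15.8%, 14.2% and 15.4% in WT. The groups overlapped, with means of 15.6% and 15.2%. With the matching reads left out altogether, the insertion share was 15.8% in XLF-/- and 17.3% in WT. The difference of -1.44 points no longer passed (exact permutation p = 0.155, adjusted p = 0.193). The kinds left out were picked from these reads and were more frequent in WT, so that a smaller difference was bound to follow. The direct share still differed by -14.6 points and the microhomology share by 15.996 points. The PAXX-/- libraries of the same runs had 10.5% to 11.2% of Sα joins with G-to-A or C-to-T insertions, XLF-/- 1.17% to 2.06% and WT 11.9% to 12.8%. All other insertions made up 15.9% to 22.2% in these PAXX-/- libraries, which overlapped XLF-/- and ran upward from about the highest WT library (15.8%).

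**Figure D4:**
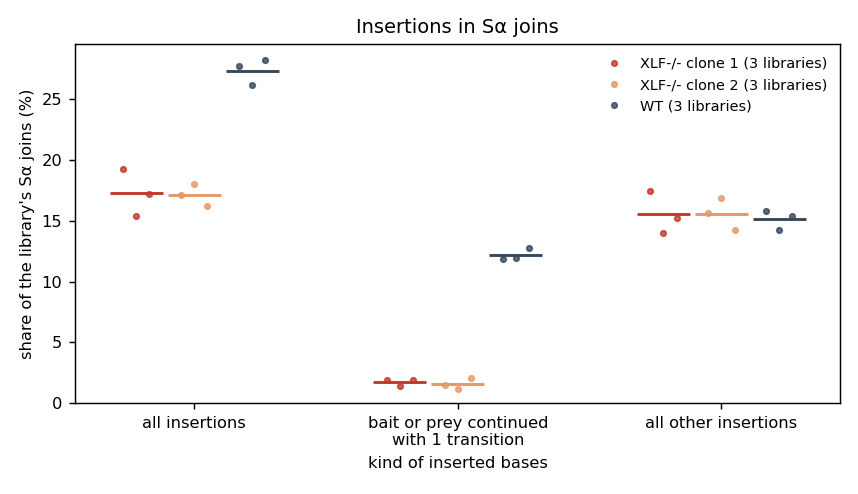
Share of each library's Sα joins (%, vertical) with any insertion, with inserted bases that continue the bait with G to A or the prey with C to T, and with any other insertion; points are libraries, lines means of 3 libraries. The groups differ in the first and second kinds and overlap in the third.

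The G-to-A insertions lay at many G of the bait, most often at bases 66, 78 and 87. Bases 104 and 72 followed, with 12 and 13 WT joins, and neither lies in an AGCT. The G of bait bases 66 and 87 is the G of the 2 AGCT copies of the bait, with 47 and 34 WT joins against 4 and 3 XLF-/- joins (2 inserted bases or more); base 78 lies in no AGCT and had 35 WT and 5 XLF-/- joins. Each of these 3 is followed by CT. The same changes were also read inside baits that went on past the base. A stood at base 66 in 0.432% of reads in clone 1, 0.466% in clone 2 and 1.73% in WT, and at base 87 in 0.339%, 0.172% and 3.60%. At base 104, which only 146 WT reads passed, it stood in 0.330%, 0% and 7.18%. Base 78, with its G78A in clone 1, is given above. On the prey side, insertion joins whose first aligned prey base was the T of AGCT made up 5.05% of insertion joins in XLF-/- (3.27% to 7.59%) and 22.7% in WT (21.4% to 24.6%), where 2.30% of core positions have that place. Among direct joins the shares were 5.50% in XLF-/- and 11.2% in WT. Microhomology joins, the largest class, had 1.35% and 2.60% there. In no class did the XLF-/- and WT libraries overlap at the T. The highest share of microhomology joins was instead at the A of AGCT, where the libraries overlapped (6.25% in XLF-/- and 6.96% in WT). Not every insertion is tied to the base changes above. At 114500098 and 114500087, the 2 most used Sα positions in both genotypes, 108 of 136 and 72 of 86 XLF-/- joins and 56 of 67 and 42 of 47 WT joins were read with insertions, and 157 of 159 and 94 of 105 of those of 2 bases or more ended in AA where mm9 has AG. Together these made up 1.14% of Sα joins in XLF-/- and 1.62% in WT. Whether the Sα of this line differs there from mm9 was not tested.

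XLF-/- joins also spread over more of Sα and turned round more often. Of Sα joins, 12.9% ± 1.17 lay outside the core in XLF-/- and 3.37% ± 0.359 in WT (difference 9.54 points, 8.03 to 11.1, exact permutation p = 0.0119). Of 63 bins of 500 bp, counted by orientation, 53 (84.1%) passed limma voom, 46 higher (73.0%) and 7 lower (11.1%) in XLF-/-. The minimum of 10 joins was counted over both groups together, so that bins with few WT joins entered through XLF-/-. Their calls as higher follow in part from the filter. Past the core toward the bait, 8 deletional bins held 163 XLF-/- and 8 WT joins, and 7 were called higher. Among the 11 deletional bins wholly within the core, the 6 toward the bait were lower and the 5 away from it higher. The bin with most WT joins, 114500001 to 114500500, held 10.3% to 12.4% of Sα joins in XLF-/- and 24.1% to 25.6% in WT (log2 fold change -1.16 ± 0.06, limma voom adjusted p = 6.68e-63), and the next bin toward the bait held 4.25% ± 0.778 and 10.5% ± 0.868 (-1.30 ± 0.09). The 3 other named falls were the deletional bins that start at 114501001, 114502501 and 114502001. In XLF-/- the 3 bins from 114499001 to 114500500 held 11.3%, 10.9% and 11.3%, without the single peak of WT (6.98%, 13.0% and 24.7%).

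Inversional joins, in which the prey is joined the other way round, made up 10.2% to 15.6% of Sα joins by library in XLF-/- and 4.11% to 5.20% in WT. Past the core toward the bait, 11 inversional bins had 10 or more joins, 411 in XLF-/- and 2 in WT in all; they reached that minimum through XLF-/-, so that the 11 calls as higher follow in part from the filter. The 5 largest fitted rises were among them. The bin 114503501 to 114504000 had 77 inversional joins in XLF-/- and 0 in WT, at least 9.78-fold higher against a floor of 3 joins over the WT group. The bin 114503001 to 114503500 had 79 against 1, a ratio of 30.1 with a 95% counting interval of 5.25 to 1203. The bins that start at 114504001, 114504501 and 114505001 had 44, 40 and 39 XLF-/- joins and 0 in WT. Inversional joins in the core had 5.29% ± 0.701 direct joins in XLF-/- against 14.9% ± 3.29 in WT, without overlap. Their insertion share overlapped, at 9.09% to 19.3% in XLF-/- and 17.5% to 29.2% in WT, which that of deletional core joins did not (16.3% to 19.96% and 27.02% to 28.3%). Orientations were not tested against each other.

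**Figure D5:**
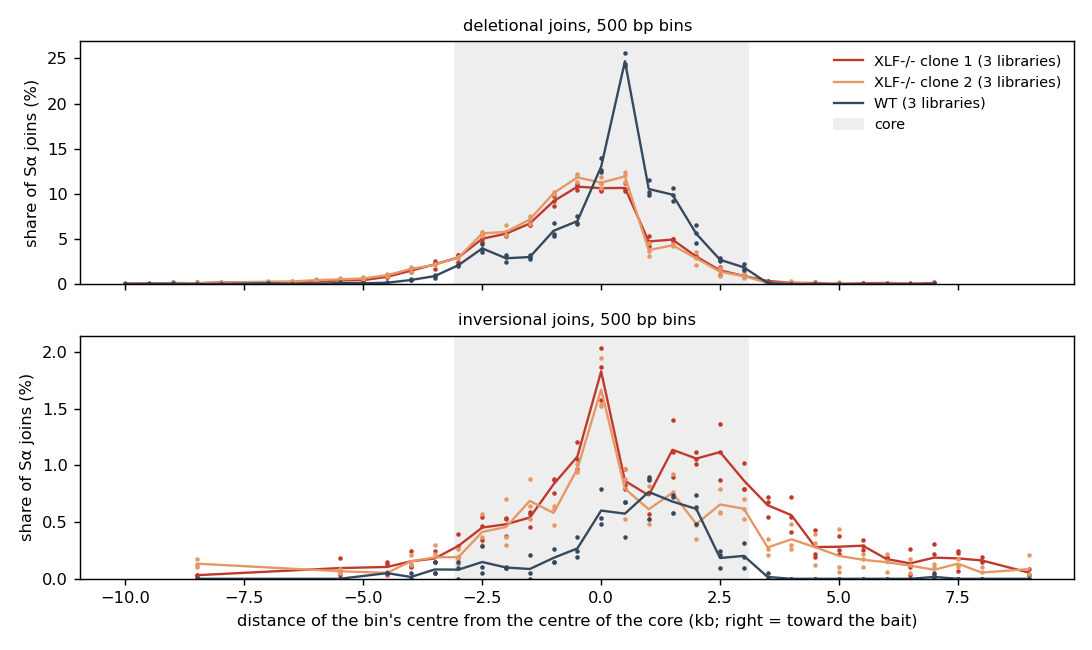
Share of Sα joins (%, vertical) in 500 bp bins by distance from the centre of the core (kb, positive toward the bait), for deletional joins (top) and inversional joins (bottom, smaller scale); points are libraries, lines means of 3 libraries, and grey is the core. The WT peak of 24.7% is absent from both XLF-/- clones, and past the core toward the bait the tested inversional bins hold 411 XLF-/- joins and 2 WT joins.

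Close to the bait, where joins delete part of Sμ and what follows, XLF-/- joins reached farther. Of deletional joins within 10 kb of the bait, 19.9%, 19.7% and 19.6% lay beyond 3 kb in clone 1 and 23.03%, 18.2% and 19.4% in clone 2, against 0.653%, 0.563% and 0.763% in WT (difference 19.3 points, 16.9 to 21.9, exact permutation p = 0.0119, adjusted p = 0.0149). By distance, 9.76% ± 1.07 of them lay within 200 bp in XLF-/- and 16.9% ± 1.37 in WT, and 25.5% ± 2.22 and 40.6% ± 2.80 at 1 to 2 kb. At 500 to 1000 bp the shares overlapped, at 27.6% and 26.6%. Between 3 and 5 kb the shares were 10.0% ± 0.822 and 0.266% ± 0.0142, and between 5 and 10 kb 9.97% ± 0.899 and 0.394% ± 0.114. Between 2 and 3 kb they were 7.85% ± 1.04 in XLF-/- and 4.71% ± 0.640 in WT. WT thus fell past 2 kb and again past 3 kb. XLF-/- also fell past 2 kb but kept a larger share than WT beyond 3 kb. The ranges differ in width, so that their shares do not compare as densities. The median distance was 1002 to 1114 bp in XLF-/- and 871.5 to 967 bp in WT (difference 134 bp, 58.8 to 208, exact permutation p = 0.0119). The PAXX-/- libraries of the same runs had 1.36% to 2.19% of these joins beyond 3 kb.

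The same held farther along the locus. Of 23 windows of 10 kb outside the bait window, from 100 kb beyond Sα to 100 kb beyond the bait, 14 (60.9%) passed limma voom, 11 higher (47.8%) and 3 lower (13.0%) in XLF-/-. Without WT library 3, 8 passed. Windows with few WT joins reached the minimum of 10 joins through XLF-/-, so that their calls as higher follow in part from the filter. The window 114650001 to 114660000, counted up to the edge of the bait window at 114654780, had 136 joins in XLF-/- (0.380% to 0.766% of joins outside the bait window) and 0 in WT, at least 15.01-fold higher against a floor of 3 joins over the WT group. The next, 114640001 to 114650000, had 44 joins against 2 (ratio 7.29, 95% counting interval 1.90 to 62.0). Past Sα, away from the bait, 114480001 to 114490000 took 1.16% to 1.89% of joins in XLF-/- and 0.186% to 0.280% in WT (log2 fold change 2.45 ± 0.41), and 114470001 to 114480000 took 0.838% and 0.164% (2.25 ± 0.47). The window 114500001 to 114510000, which holds the part of Sα toward the bait, was lower in XLF-/- (13.7% to 26.9%, against 40.4% to 42.1% in WT).

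Near 60 kb from the bait the clones differed. The window 114600001 to 114610000 held 0.0881%, 0.0835% and 0.128% of joins in clone 1 and 0.280%, 0.403% and 0.727% in clone 2, against 0.629%, 0.669% and 0.877% in WT. It passed as lower over both clones (log2 fold change -1.91 ± 0.33, limma voom adjusted p = 3.43e-07), although 1 library of clone 2 lay among the WT libraries. The window next to it, 114590001 to 114600000, had 41 joins in XLF-/-, with none in 1 library of clone 1, and 0 in WT (at least 4.53-fold higher against the same floor). What the annotation holds in these windows is not given here, since no mm9 annotation was used.

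Direct joins were lower without XLF at every place on chromosome 12 where both groups had enough joins, and not detectably so elsewhere. In the bait window they made up 6.68% to 7.93% in XLF-/- and 19.2% to 21.3% in WT (difference -12.6 points, -13.7 to -11.4, exact permutation p = 0.0119). On chromosome 12 outside both windows the shares were 9.41% ± 2.90 and 17.7% ± 2.64 (difference -8.29 points, -12.9 to -3.56, exact permutation p = 0.0119, adjusted p = 0.0185 over 28 tests, and 0.0526 without any 1 WT library, when 0.0357 is the smallest p). On other chromosomes they were 15.2% ± 3.16 and 16.8% ± 1.24 over 7422 and 2101 joins (exact permutation p = 0.429). The clones lay on either side of the WT mean, at 13.2% in clone 1 (11.8% to 15.7%) and 17.2% in clone 2 (14.7% to 20.3%). The interval of the difference, -6.26 to 3.60 points, excluded one of the size seen at Sα. It takes the libraries of both clones as alike. Mean microhomology length was higher in XLF-/- at Sα by 0.540 bases (2.87 against 2.33). On other chromosomes it was 3.85 to 4.09 bases in the XLF-/- libraries, against 4.84, 4.45 and 4.04 in WT, with the third WT library within the XLF-/- range. This difference (-0.466 bases, exact permutation p = 0.0357, adjusted p = 0.0476) did not pass without any 1 of the 9 libraries (adjusted p 0.05 to 0.143), and was -0.267 bases without WT library 1.

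The share of joins on other chromosomes differed in direction between the clones, a difference that was not tested. Joins on other chromosomes made up 23.1%, 17.7% and 19.9% of those outside the bait window in clone 1 and 45.5%, 31.8% and 35.8% in clone 2, against 22.9%, 25.1% and 26.0% in WT. Clone 2 lay above WT in every library, and 1 library of clone 1 lay within the WT range, and the difference over both clones did not pass (4.29 points, -9.18 to 20.3, exact permutation p = 0.536). The share in Sα was 67.0%, 73.8% and 71.1% in clone 1 and 45.2%, 58.5% and 53.9% in clone 2, against 72.4%, 70.7% and 69.7% in WT. It was lower in every library of clone 2, clone 1 lay around WT, and the difference over both clones did not pass (-9.35 points, exact permutation p = 0.250). Of the 5 windows of 10 kb on other chromosomes with most joins in all 3 clones, chromosome 14 from 32420001 to 32430000 had 60, 47 and 49 joins in the libraries of clone 1 and 43, 36 and 31 in those of clone 2, against 12, 9 and 12 in WT. Per 100 joins outside the bait window this was 1.07% in XLF-/- and 0.386% in WT, with no overlap. Chromosome 8 from 125950001 to 125960000 had 35 joins in XLF-/- and 2 in WT. The windows were picked by their joins, most of them from XLF-/-, so that these values are a description; in the other 3 windows the libraries overlapped.

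Of the 10 planned measures and the AGCT share, 9 separated XLF-/- from the PAXX-/- libraries of the same runs without overlap (exact permutation p = 0.00216 and adjusted p = 0.00265 each over these 11), and the 2 that did not were the shares in Sα and on other chromosomes. The libraries were split without regard to run or clone, so these p-values measure the spread between libraries. On the first run, with 2 libraries of each, the direct share at Sα was 5.95% in XLF-/- and 17.04% in PAXX-/-, and on the second, with 4 of each, 6.39% and 16.8%. PAXX-/- is a knockout too and cannot stand in for WT. Its direct share (16.1% to 17.5%) lay below WT (18.1% to 18.5%). Its deletional share, share beyond 3 kb and AGCT share also lay outside the WT libraries.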

How the data were processed

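Each deposited table holds the libraries of 1 group, told apart by a library name, and lists 1 join per line with the bait and prey positions on the read and on mm9 (Bowtie2 and mm9 per the submitters' processing notes; further processing: not given in the sources used here). These columns are of another kind than counts or intensities, and the authors deposited no normalized value. Read bases that the bait and prey alignments both cover were taken as overlap: above 0 microhomology, 0 direct, below 0 insertion. Letters of mm9 came from the deposited 20-base context of each join, with 0 conflicts. Members, lists and tests were chosen with earlier results of these data known; the AGCT, insertion and same-run comparisons followed after these libraries were seen. Measures per library were compared with a two-sided exact permutation test (intervals by inverting it) and Benjamini-Hochberg adjustment. Features with 10 or more joins were tested on join counts by limma voom (R 4.3.3, limma 3.58.1; library size, the joins of that family). Named features were the 5 largest rises and falls among those passing with 20 joins or more. On simulated data with 3-fold changes, 63.75% of changed locus windows, 65.8% of Sα bins, 80% of bait ends and 100% of overlap classes were recovered; with 100 or more joins, 96.7% or more in each family. Of unchanged features, 0.625% to 1.58% were called. The simulation changed a minority of features, in random directions and without clone or run effects. It does not cover the widespread calls found here. Intervals of ratios cover counting error only. Software: scipy 1.17.1, pandas 2.3.3 and numpy 2.4.6 under Python 3.11.15.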

Additional observations from a re-analysis of the deposited data

Results flagged for a closer look

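The share of joins on other chromosomes went in opposite directions in the clones. Relative to the WT mean it was -4.43 points in XLF-/- clone 1 and 13.0 points in clone 2, with every library of a clone on its side. The difference between the clones was not tested. Among deletional joins more than 3 kb from the bait, mean microhomology length differed from the WT mean by -0.0816 bases in clone 1 and 0.0845 bases in clone 2, and this difference was not tested either. WT had 15 joins there.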

How the results depend on the processing

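Of 220 combinations of a result and another setting with a test, 215 kept the direction and the side of the threshold, or a count within 1.5 times. The planned measures and the AGCT share in each clone alone, 22 values, had no test, and 21 kept the direction; the Sα share was -0.299 points in clone 1 and -18.4 in clone 2. Leaving out the reads whose inserted bases continue bait or prey with a transition, chosen after seeing the data, ended the call of the insertion share (-1.44 points, adjusted p = 0.193). The share on other chromosomes was -4.43 points with XLF-/- clone 1 alone. With bins of 1000 bp, 33 of 37 bins passed. With bait ends before the substituted base 78 only, 28 of 46 ends passed. Exact permutation called 9 of 23 locus windows, and leaving out 1 library at a time gave 8 to 17, the lowest without WT library 3. The cause was not tested. Leaving out 1 library gave differences of -12.2 to -12.0 for the direct share, 21.9 to 22.8 for the microhomology share, -10.7 to -9.72 for the insertion share, 0.993 to 6.54 for other chromosomes and -20.7 to -19.7 for the AGCT share. No paired analysis was possible because the library names in the tables do not carry the replicate numbers of the titles. WT was 1 clone on a run of its own, so WT clone, run and genotype cannot be told apart. WT had 15 deletional joins beyond 3 kb of the bait and 6037 Sα joins, which limits its rare classes.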
